A study of Bos taurus with 6 samples.

Results

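Mitochondrial fusion joins the outer and then the inner membranes of neighbouring mitochondria, and in the oocyte it bears on a store of mitochondria that the embryo inherits. The 10 genes described here encode GTPases of that process and a set of inner membrane proteins. The fusion GTPases are MFN1 and MFN2 of the outer membrane and OPA1 of the inner membrane. The others are the proteases OMA1, YME1L1 and AFG3L2, the membrane scaffold proteins STOML2 and PHB2, and the cristae junction proteins IMMT and CHCHD3. The 10 genes were chosen by name, from their known roles, although earlier results of these data were known. All 10 were found by symbol among the 17325 genes of each library. These roles are known mainly from human and mouse cells, where OMA1 and YME1L1 cut the long form of OPA1 into short forms, and prohibitins and STOML2 organise the membrane around the proteases.

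RNA came from Bos taurus oocytes that had been matured in culture as far as metaphase II, when the egg waits for fertilization. Of 6 libraries, 3 are labelled siMTFP1, the knockdown of MTFP1, and 3 are labelled NC, the negative control. MTFP1 encodes an inner mitochondrial membrane protein linked to fission, the opposite of fusion, so the design allows a comparison of fusion genes after a knockdown on the fission side. Breed, age, the number of oocytes in a library, the knockdown agent and whether replicates came from separate cultures are not stated in the labels, so p-values measure the spread between these samples, which may be technical.

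Levels are given as FPKM, which counts sequenced fragments relative to transcript length and library total. Each library had 15120 to 15533 genes above 0, and FPKM sums lay between 784366 and 892790. Read depth per library is unknown. The commonest ratio of low values lay within 0.1 of 0 on the log2 scale in 15 of 15 pairs of libraries. That cannot show equal depth, because the values are already scaled to the library total and rounded to 2 decimals. All 10 oocyte markers, among them GDF9, ZP2 and the oocyte linker histone H1FOO, were at 1 FPKM or more in every library. They summed to 31270, 30879.5 and 31525.2 FPKM in the libraries labelled siMTFP1, against 32043.1, 33363.9 and 33448.7 FPKM in those labelled NC. These sums did not overlap, while 5 of the 10 markers had a higher and 5 a lower mean log2(FPKM + 1) with the siMTFP1 label. ZP2 was the 1 marker with groups apart, at means of 3135 FPKM (siMTFP1) and 4566 FPKM (NC, limma adjusted p = 0.447). Of all tested genes, 5.05% were apart in that direction. The 20 cumulus and granulosa markers summed to 187, 1166 and 193 FPKM in the libraries labelled siMTFP1 1, 2 and 3, against 360, 153 and 294 FPKM in those labelled NC 1, 2 and 3. In siMTFP1 2 the matrix protein gene TIMP1 made up 955 FPKM of that sum. Of these 20 genes, 7 were at 1 FPKM or more in every library, among them STAR at 54.5 to 72.6 FPKM and HAS2 at 33.8 to 49.9 FPKM. The granulosa genes FSHR, FOXL2 and AMH reached at most 0.02, 0.08 and 0.18 FPKM. Of the 14 that were tested, 11 had a higher and 3 a lower mean log2(FPKM + 1) in the libraries labelled siMTFP1. The mean was higher there for 54.2% of all tested genes. INHA, VIM and SPARC were higher at an unadjusted limma p under 0.05, as were 3.86% of all tested genes, with 0 past the adjusted threshold. Their log2 differences were 1.46, 1.57 and 1.36. The 3 lower genes were TNFAIP6, PTX3 and PTGS2, with log2 differences of -1.36, -0.34 and -0.03. Group ranges overlapped for each of the 14 genes. The part of these marker genes in the values below was not tested.

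The targeted gene was not lower in the libraries labelled siMTFP1, but it was too scarce for these libraries to judge the knockdown. MTFP1 was at 0.43, 0.58 and 1.15 FPKM in the libraries labelled siMTFP1, against 0.53, 0.55 and 0.05 FPKM in those labelled NC. Its mean over the 6 libraries was 0.548 FPKM, below the mean of 1 FPKM required for testing. The group means of log2(FPKM + 1) differed by 0.32, with p = 0.4 by an exact permutation test (two-sided). Without NC 3 that difference was 0.14. With 3 against 3 libraries such a test cannot go below 0.1. Every direction below is therefore that of the labels.

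Oocytes of both groups held transcripts of all 10 genes, and the levels spanned a 134-fold range. STOML2 was the most abundant at a mean of 212 FPKM over the 6 libraries, rank 624 of the 17325 genes, and MFN2 the least abundant at 1.58 FPKM, rank 8688. Between them, CHCHD3, OMA1, OPA1, AFG3L2, YME1L1, MFN1 and PHB2 followed in that order, at 32.0, 29.5, 26.6, 25.5, 18.1, 16.2 and 14.98 FPKM, and IMMT averaged 6.37 FPKM. Apart from STOML2 at the top and MFN2 at the bottom, each neighbouring pair in this order had overlapping ranges over the 6 libraries. The mean of STOML2 was 6.64-fold that of CHCHD3, and the mean of IMMT was 4.03-fold that of MFN2. STOML2 exceeded CHCHD3, and IMMT exceeded MFN2, in all 6 libraries. AFG3L2 also exceeded YME1L1 within all 6, and PHB2 exceeded IMMT, with means 1.41-fold and 2.35-fold apart, although the ranges of these pairs overlapped. The mean of 8 of the 10 genes exceeded 8.57 FPKM, the median of the 9730 genes tested.

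**Figure D1:**
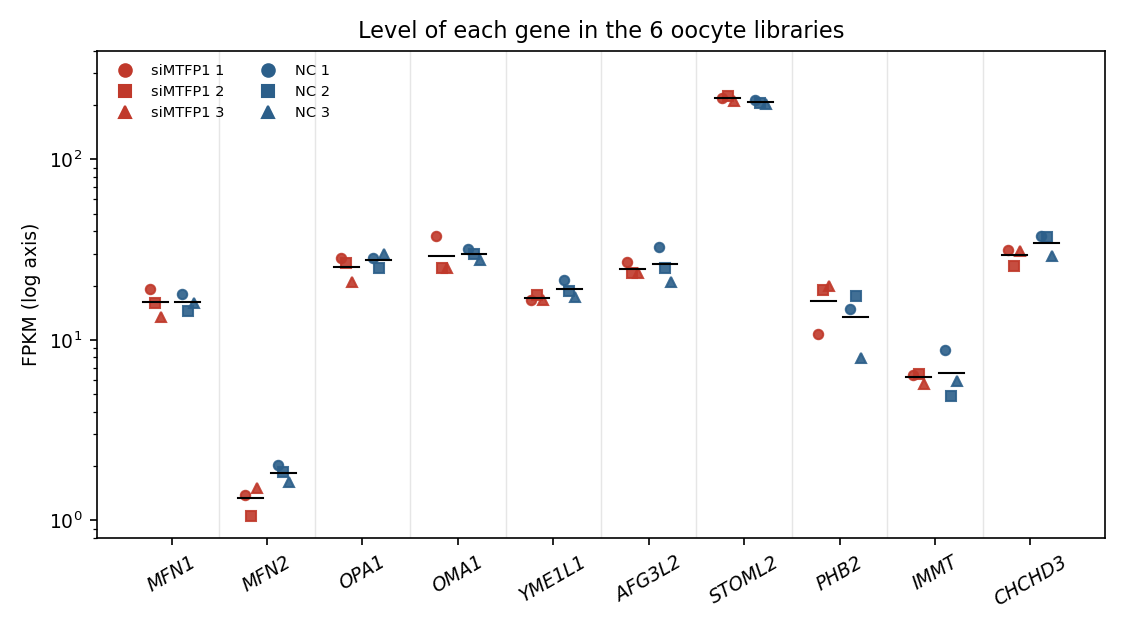
FPKM of the 10 genes (log axis) in the 3 libraries labelled siMTFP1 (red) and the 3 labelled NC (blue), with a black line at each group mean. STOML2 lies near 212 FPKM and MFN2 near 1.58 FPKM, the groups are apart in MFN2 alone, and PHB2 is the most scattered.

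None of the 10 genes passed the test between the groups. With limma, 0 of 10 had a Benjamini-Hochberg adjusted p under 0.05, and the smallest was 0.828. Across all 9730 tested genes 0 passed as well (0%), and 635 had an unadjusted p under 0.05 (6.53%), a mark that 0 of the 10 genes reached. Group ranges did not overlap for 1 of the 10, MFN2, whose values were lower in the libraries labelled siMTFP1. Over all tested genes, 5.05% were apart in that direction and 5.97% in the other, so 1 of 10 says little about these genes. In bulk RNA a smaller share of oocytes or cells of one type and less RNA per cell cannot be told apart.

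On the log2(FPKM + 1) scale the mean was lower in the libraries labelled siMTFP1 for 8 of the 10 genes and higher for STOML2 and PHB2, with a median log2 difference of -0.06 against 0.02 over all tested genes, of which 54.2% had a higher mean there. The mean of MFN1 differed by -0.0023 on that scale, while its mean FPKM was 16.2 in the libraries labelled siMTFP1 and 16.1 in those labelled NC. The split of 8 and 2 rested on single libraries. It became 5 lower and 5 higher without NC 1, and likewise without siMTFP1 3. On the log2(FPKM + 1) scale NC 1 lay above the 6-library mean for each of the 10 genes, and it held the highest value of 5 of them. The median deviation of the 10 genes in NC 1 was 0.19 on the log2 scale, against 0.05 for all tested genes in that library. In siMTFP1 3, the library with the highest FPKM sum, 4 of the 10 genes had their lowest value.

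**Figure D2:**
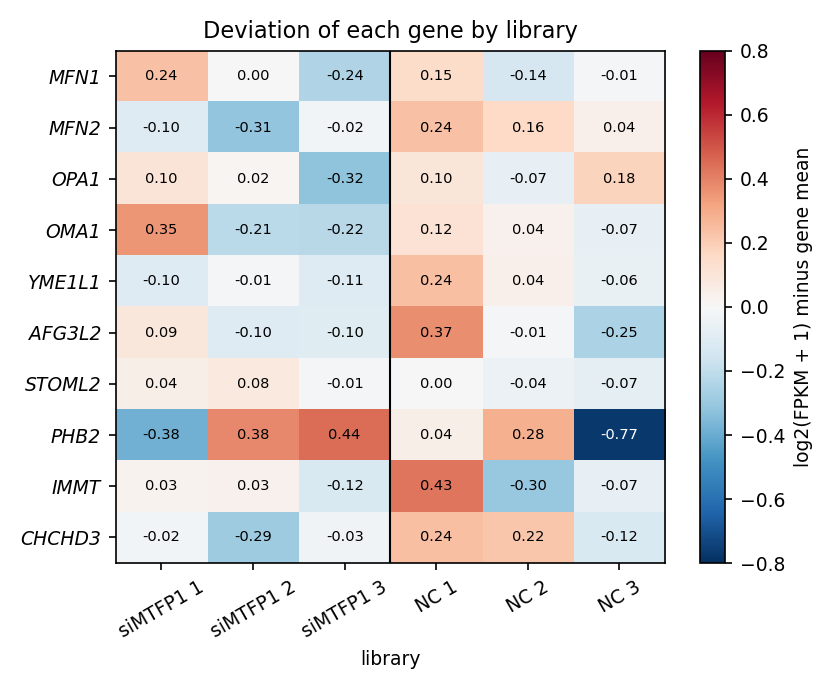
Deviation of each gene in each library from that gene's mean over the 6 libraries, in log2(FPKM + 1) units, with libraries labelled siMTFP1 left of the line and those labelled NC right of it. The NC 1 column is at or above 0 for all 10 genes, and the PHB2 row holds the widest deviations, from -0.77 in NC 3 to 0.44 in siMTFP1 3.

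Of the outer membrane fusion GTPases, MFN1 was the main transcript of these oocytes. It was at 19.1, 16.1 and 13.4 FPKM in the libraries labelled siMTFP1, against 17.9, 14.5 and 15.95 FPKM in those labelled NC. The groups overlapped throughout, with means of 16.2 ± 2.84 FPKM with the siMTFP1 label and 16.1 ± 1.71 FPKM with the NC label (SD, n = 3 each). The log2 difference was -0.0023 (SE 0.17, 95% interval -0.39 to 0.39). Its paralogue MFN2, which also tethers mitochondria to the endoplasmic reticulum, was at 1.39, 1.06 and 1.52 FPKM in the libraries labelled siMTFP1, against 2.02, 1.86 and 1.64 FPKM in those labelled NC. All 3 libraries labelled siMTFP1 lay below all 3 labelled NC, by a narrow margin between siMTFP1 3 and NC 3. Means were 1.32 ± 0.237 FPKM with the siMTFP1 label and 1.84 ± 0.191 FPKM with the NC label, a ratio of means of 0.719. The log2 difference of MFN2 was -0.29 (SE 0.16, interval -0.66 to 0.08, limma adjusted p = 0.828).

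Because MFN2 is scarce, the size of its difference moved with the pseudocount, to -0.46 with 0.1 and to -0.11 with 5. The lowest MFN2 value was that of siMTFP1 2, the library with the highest sum of cumulus and granulosa markers. Without that library the log2 difference of MFN2 was -0.21. The ratio of MFN1 to MFN2 within a library, which does not depend on the library total, was 13.7, 15.2 and 8.82 in the libraries labelled siMTFP1, against 8.86, 7.80 and 9.73 in those labelled NC. Here siMTFP1 3 lay inside the NC range, and the log2 difference of 0.48 did not pass (exact two-sided permutation test, p = 0.3, adjusted p = 0.6 over 6 ratios). MFN1 exceeded MFN2 by at least 7.80-fold in every library.

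OPA1, the dynamin-related GTPase that fuses inner membranes and holds cristae together, was at 28.5, 26.7 and 20.9 FPKM in the libraries labelled siMTFP1, against 28.3, 25.2 and 30.1 FPKM in those labelled NC. The groups overlapped, siMTFP1 3 being the lowest and NC 3 the highest. Means were 25.4 ± 3.94 FPKM with the siMTFP1 label and 27.9 ± 2.47 FPKM with the NC label (SD, n = 3 each). Its log2 difference was -0.14 (SE 0.16, interval -0.50 to 0.23, limma adjusted p = 0.923), and -0.0097 without siMTFP1 3. FPKM per gene carries no information on the long and short protein forms that the proteases make. The ratio of OPA1 to MFN1 was 1.49, 1.66 and 1.56 in the libraries labelled siMTFP1, against 1.58, 1.74 and 1.88 in those labelled NC. It was the steadiest of the 6 ratios, above 1 in all 6 libraries, with a log2 difference of -0.14 (exact two-sided permutation p = 0.2, adjusted p = 0.6).

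Transcripts of the 3 inner membrane proteases stood at means of 29.5 FPKM for OMA1, 25.5 FPKM for AFG3L2 and 18.1 FPKM for YME1L1 over the 6 libraries. OMA1, a metalloprotease that cuts OPA1 when the membrane potential is lost, was at 37.5, 25.04 and 24.9 FPKM in the libraries labelled siMTFP1, against 31.7, 29.9 and 27.8 FPKM in those labelled NC. The 3 NC values fell between the siMTFP1 extremes, and the spread was 7.23 FPKM (SD, n = 3) in the libraries labelled siMTFP1 and 1.97 FPKM in those labelled NC, a difference in spread that was not tested. Means were 29.1 FPKM with the siMTFP1 label and 29.8 FPKM with the NC label, a log2 difference of -0.06 (SE 0.18, interval -0.47 to 0.36).

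YME1L1, the ATP-driven protease that faces the intermembrane space and cuts OPA1 at a site of its own, was at 16.7, 17.8 and 16.7 FPKM in the libraries labelled siMTFP1, against 21.4, 18.6 and 17.2 FPKM in those labelled NC. Only siMTFP1 2 crossed into the NC range, where it exceeded NC 3. Means were 17.1 ± 0.645 FPKM with the siMTFP1 label and 19.1 ± 2.16 FPKM with the NC label, a log2 difference of -0.15 (SE 0.14, interval -0.48 to 0.18, limma adjusted p = 0.909). OMA1 exceeded YME1L1 in every library, the ratio of YME1L1 to OMA1 being 0.447, 0.712 and 0.670 in the libraries labelled siMTFP1, against 0.676, 0.621 and 0.619 in those labelled NC (log2 difference -0.10, exact two-sided permutation p = 0.9, adjusted p = 0.9). The value of 0.447 belongs to siMTFP1 1, the library with the most OMA1, and without that library the log2 difference of the ratio was 0.11.

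AFG3L2, the core subunit of the protease that faces the matrix, was at 26.9, 23.4 and 23.5 FPKM in the libraries labelled siMTFP1, against 32.9, 25 and 21.04 FPKM in those labelled NC. All values labelled siMTFP1 lay between the lowest and the highest NC value. Means were 24.6 ± 2.01 FPKM with the siMTFP1 label and 26.3 ± 6.05 FPKM with the NC label (SD, n = 3 each), a log2 difference of -0.07 (SE 0.18, interval -0.49 to 0.34), which turned to 0.094 without NC 1. SPG7, which can replace some AFG3L2 subunits in that protease, was nearly absent. It stood at 0.28, 0.45 and 0.43 FPKM in the libraries labelled siMTFP1, against 0.02, 0.16 and 0.19 FPKM in those labelled NC. The groups did not overlap, although all 6 values lay below the expression filter of a mean of 1 FPKM, and limma without that filter gave a log2 difference of 0.30 (SE 0.08, adjusted p = 0.776).

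AFG3L2 exceeded SPG7 by 96.1, 52.0 and 54.6-fold in the libraries labelled siMTFP1, against 1646, 156 and 111-fold in those labelled NC. The log2 difference of this ratio was -2.23, and the exact two-sided permutation p of 0.1 was the smallest that the design allows (adjusted p = 0.6). NC 1 decided its size, because SPG7 was at 0.02 FPKM there, and the log2 difference was -1.02 without it. At such levels a ratio of FPKM rests on very few fragments, and with the depth unknown no counting error can be given.

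The scaffold proteins gave the steadiest and the most variable transcript of the 10. STOML2, a stomatin-like protein that binds prohibitins and cardiolipin and assembles with YME1L1, was at 219, 224 and 211 FPKM in the libraries labelled siMTFP1, against 213, 206 and 202 FPKM in those labelled NC. The ranges overlapped only between siMTFP1 3 and NC 1, with means of 218 ± 6.96 FPKM with the siMTFP1 label and 207 ± 5.58 FPKM with the NC label (SD, n = 3 each). Its log2 difference was 0.08 (SE 0.11, interval -0.18 to 0.33, limma adjusted p = 0.945). Over the 6 libraries the coefficient of variation of STOML2 was 3.93%, and 0.360% of the 9730 tested genes had a smaller one. Among the 448 tested genes with a mean within 1.5-fold of its own, the median coefficient of variation was 12.8% and 0.893% were steadier than STOML2.

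PHB2, which forms the ring-shaped prohibitin complex of the inner membrane together with PHB1, was at 10.7, 18.96 and 19.8 FPKM in the libraries labelled siMTFP1, against 14.8, 17.6 and 7.98 FPKM in those labelled NC. Each group held a low library, siMTFP1 1 and NC 3, and the ranges overlapped. Means were 16.5 ± 5.02 FPKM with the siMTFP1 label and 13.5 ± 4.95 FPKM with the NC label, a log2 difference of 0.30 (SE 0.31, interval -0.42 to 1.01, limma adjusted p = 0.914) that became -0.015 without NC 3 and 0.56 without siMTFP1 1. Its coefficient of variation was 31.8%, and 92.3% of the 1528 tested genes of similar mean varied less. The ratio of STOML2 to PHB2 was 20.4, 11.8 and 10.6 in the libraries labelled siMTFP1, against 14.4, 11.7 and 25.3 in those labelled NC (log2 difference -0.24, exact two-sided permutation p = 0.6, adjusted p = 0.72).

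PHB1 was far more abundant than its partner. It stood at 98.6, 121 and 118 FPKM in the libraries labelled siMTFP1, against 156, 82.6 and 95.6 FPKM in those labelled NC, with overlapping groups and a log2 difference of 0.06 (limma SE 0.23, adjusted p = 0.982). PHB1 exceeded PHB2 in all 6 libraries, by 4.69 to 12.0-fold with a median of 7.80-fold, a ratio that was examined after the values were seen. No source used here says how reads shared with similar sequences elsewhere in the genome were divided, which limits such comparisons of level between prohibitin genes.

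At the cristae junctions, IMMT, the core subunit of the MICOS complex that shapes the neck of each crista, was at 6.43, 6.45 and 5.70 FPKM in the libraries labelled siMTFP1, against 8.80, 4.90 and 5.95 FPKM in those labelled NC. The values labelled siMTFP1 lay close together inside the NC range, at means of 6.19 ± 0.427 FPKM with the siMTFP1 label and 6.55 ± 2.02 FPKM with the NC label (SD, n = 3 each). The log2 difference was -0.04 (SE 0.21, interval -0.51 to 0.43) and became 0.17 without NC 1. CHCHD3, the MICOS subunit that links IMMT to the outer membrane, was at 31.3, 25.8 and 31.1 FPKM in the libraries labelled siMTFP1, against 37.6, 37.2 and 29.0 FPKM in those labelled NC. NC 3 was the one control library inside the siMTFP1 range. CHCHD3 means were 29.4 ± 3.10 FPKM with the siMTFP1 label and 34.6 ± 4.82 FPKM with the NC label, a log2 difference of -0.22 (SE 0.16, interval -0.59 to 0.14, limma adjusted p = 0.880).

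Like MFN2, CHCHD3 was lowest in siMTFP1 2, and without that library its log2 difference was -0.14. IMMT transcripts were fewer than those of CHCHD3 in every library. The ratio was 0.205, 0.2497 and 0.183 in the libraries labelled siMTFP1, against 0.234, 0.132 and 0.205 in those labelled NC (log2 difference 0.19, exact two-sided permutation p = 0.6, adjusted p = 0.72). Other MICOS subunit genes lay on both sides of IMMT. MICOS10 stood 18.1 to 36.2-fold and APOO 11.9 to 19.7-fold above it. CHCHD6 was below it, at a mean of 0.963 FPKM in the libraries labelled siMTFP1 and 1.04 FPKM in those labelled NC. APOOL was lower still, at a mean of 0.540 FPKM in the libraries labelled siMTFP1 and 0.207 FPKM in those labelled NC, and did not pass the filter. MICOS13 had 7.01, 17.1 and 10.53 FPKM in the libraries labelled siMTFP1, against 8.28, 5.42 and 7.30 FPKM in those labelled NC. These comparisons were made after the values were seen.

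**Figure D3:**
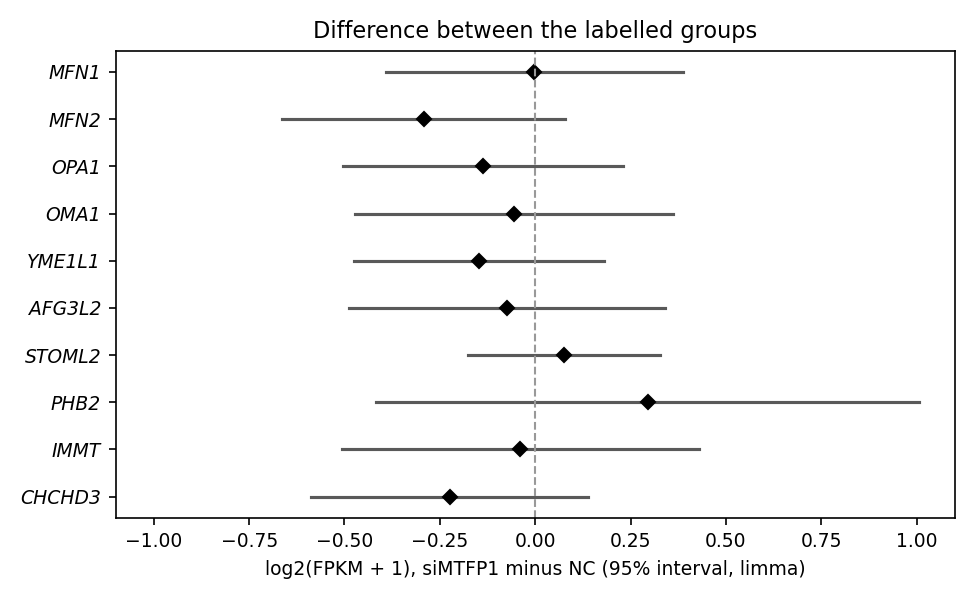
Log2 difference between libraries labelled siMTFP1 and NC for each gene, on the log2(FPKM + 1) scale, with 95% intervals from limma (n = 3 each). Every interval crosses 0, that of STOML2 is the narrowest and that of PHB2 the widest.

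The intervals bound what these libraries could have missed on the log2(FPKM + 1) scale only. For 9 of the 10 genes the 95% interval lay within 0.7 log2 units of 0, and for PHB2 the upper end was 1.01. The pseudocount of 1 shrinks differences of scarce genes, so the bound for MFN2 is not one on its fold change. With a pseudocount of 0.1 its log2 difference was -0.46. Differences inside these bounds could not be told from 0 with 3 libraries a group. A p above the threshold does not show that the levels were equal.

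**Figure D4:**
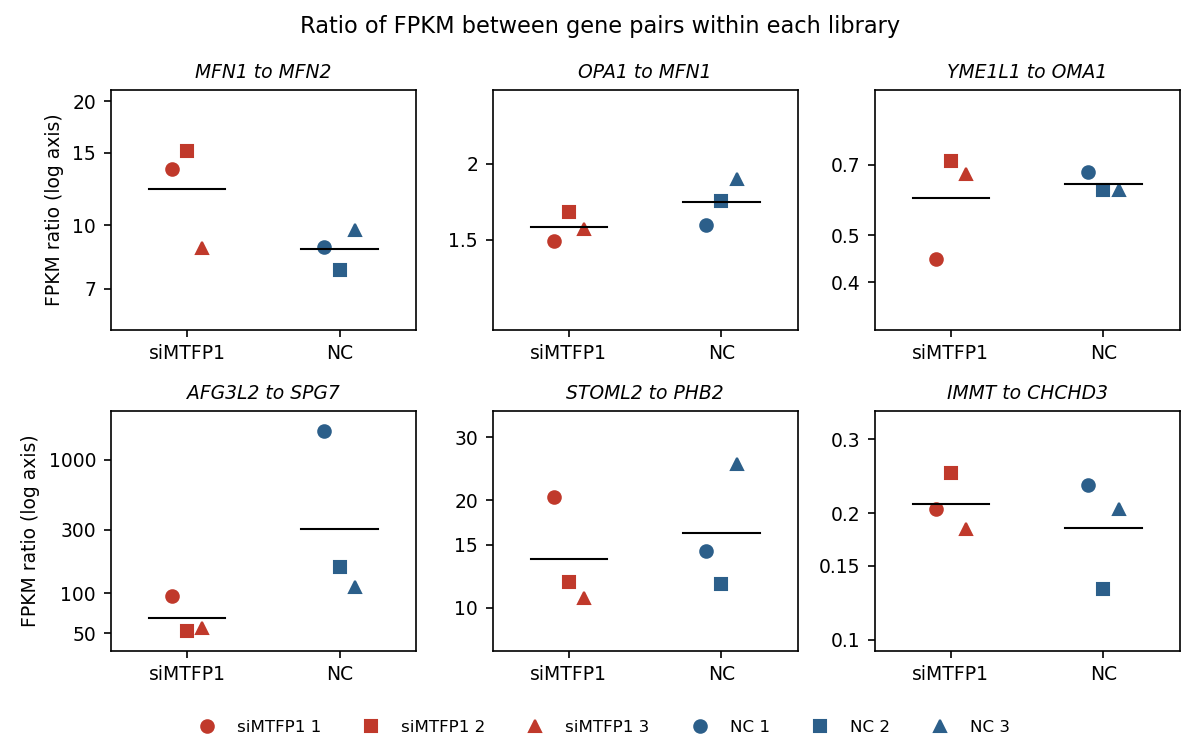
Ratio of FPKM between 6 gene pairs within each library (log axes, a separate one for each pair), libraries labelled siMTFP1 in red and left, those labelled NC in blue and right, with a line at the geometric mean. The groups are apart only for AFG3L2 to SPG7, where NC 1 reaches 1646, and MFN1 to MFN2 is higher in siMTFP1 1 and 2 than in any library labelled NC.

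Partner genes of the same pathways were compared from 5 lists of 63 genes, of which 62 were matched and 50 passed the filter. By limma 0 of these 50 passed the adjusted threshold in either direction, and the unadjusted p was under 0.05 for 1 in the higher direction (MTX1) and for 1 in the lower (ATP5ME), against 3.86% and 2.66% of all tested genes. Their median log2 difference was 0.04, against 0.02 over all tested genes. The mean was higher for 28 and lower for 22 in the libraries labelled siMTFP1, where 54.2% of all tested genes were higher. Group ranges were apart upward for 3 of the 50 and downward for 2, against 5.97% and 5.05% of all tested genes.

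In the fusion list, 7 of 12 matched genes were tested, with 3 higher and 4 lower means. USP30, a deubiquitinase of the outer membrane, averaged 3.96 ± 0.182 FPKM in the libraries labelled siMTFP1 and 3.12 ± 0.891 FPKM in those labelled NC (log2 difference 0.29, limma adjusted p = 0.867). MTCH2, an outer membrane insertase, averaged 58.6 ± 4.201 FPKM with the siMTFP1 label and 67.2 ± 4.43 FPKM with the NC label (log2 difference -0.19, adjusted p = 0.868). PLD6, a phospholipase of the outer membrane that favours fusion, was at 10.45, 8.53 and 8.94 FPKM in the libraries labelled siMTFP1, against 8.51, 7.78 and 7.99 FPKM in those labelled NC. PLD6 groups were apart by 0.02 FPKM, and the gene was singled out after its values were seen (log2 difference 0.18, limma adjusted p = 0.892). The fusion factors MIGA1 and MIGA2 averaged 2.14 and 0.120 FPKM in libraries labelled siMTFP1. In those labelled NC they averaged 2.94 and 0.227 FPKM, and MIGA2 lay below the filter.

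Among other proteases and their partners, 12 of 15 genes were tested, with 7 higher and 5 lower means. PARL, a rhomboid protease of the inner membrane that can assemble with STOML2 and YME1L1, was the most abundant of them at 1494 ± 18.0 FPKM in the libraries labelled siMTFP1 and 1458 ± 84.4 FPKM in those labelled NC, rank 80 of all genes. PARL thus exceeded OMA1 by 40.3 to 59.9-fold within a library, and was singled out after its values were seen. IMMP1L, a subunit of the inner membrane signal peptidase, averaged 100.1 ± 5.604 FPKM with the siMTFP1 label and 117 ± 9.32 FPKM with the NC label without overlap (log2 difference -0.22, limma adjusted p = 0.834). LACTB, a filament-forming protein of the intermembrane space, averaged 6.15 ± 1.45 FPKM with the siMTFP1 label and 7.79 ± 1.01 FPKM with the NC label (log2 difference -0.31, adjusted p = 0.855). This list also holds the RNase gene YBEY, which is no protease.

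The list of prohibitin partners and OMA1 signalling had 7 tested genes, 4 with a higher and 3 with a lower mean. DELE1, the OMA1 substrate that relays mitochondrial stress to the cytosol in human cells, was at 1.3, 2.24 and 1.33 FPKM in the libraries labelled siMTFP1, against 1.25, 0.70 and 0.82 FPKM in those labelled NC. Those groups were apart by 0.05 FPKM, with a log2 difference of 0.44 (limma SE 0.20, adjusted p = 0.766), and DELE1 passed the filter only through the libraries labelled siMTFP1. EIF2AK1, the kinase that DELE1 activates, averaged 48.1 ± 11.5 FPKM with the siMTFP1 label and 46.6 ± 12.5 FPKM with the NC label (log2 difference 0.05). SPATA5, an AAA ATPase, averaged 14.9 ± 3.10 FPKM with the siMTFP1 label and 17.7 ± 0.506 FPKM with the NC label (log2 difference -0.25, limma adjusted p = 0.867). Whether SPATA5 belongs in this list is uncertain.

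In the cristae list, 14 of 15 genes were tested, with 9 higher and 5 lower means. MTX1, an outer membrane protein of the bridge between MICOS and the sorting machinery, was at 2.31, 2.58 and 1.80 FPKM in the libraries labelled siMTFP1, against 1.43, 0.63 and 1.04 FPKM in those labelled NC. All values labelled siMTFP1 lay above those labelled NC, with a log2 difference of 0.68 (limma SE 0.20, adjusted p = 0.644). ATP5ME, an ATP synthase subunit of the dimer interface at the cristae rim, averaged 380 ± 30.1 FPKM with the siMTFP1 label and 475 ± 67.2 FPKM with the NC label without overlap (log2 difference -0.32, limma adjusted p = 0.764). The partner of MTX1 in the bridge, MTX2, averaged 27.0 FPKM with the siMTFP1 label and 26.6 FPKM with the NC label (log2 difference 0.01).

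Cardiolipin, the inner membrane lipid that OPA1 and STOML2 bind, had 10 tested genes of 12 in its list, 5 higher and 5 lower. TRIAP1, which with PRELID1 carries the precursor lipid inward, averaged 152 ± 17.7 FPKM in the libraries labelled siMTFP1 and 182 ± 22.0 FPKM in those labelled NC (log2 difference -0.26, limma adjusted p = 0.828). PGS1, the first committed enzyme of the route, averaged 2.48 ± 0.408 FPKM with the siMTFP1 label and 1.80 ± 0.641 FPKM with the NC label (log2 difference 0.33, adjusted p = 0.852). Both groups overlapped for TRIAP1 and for PGS1.

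**Figure D5:**
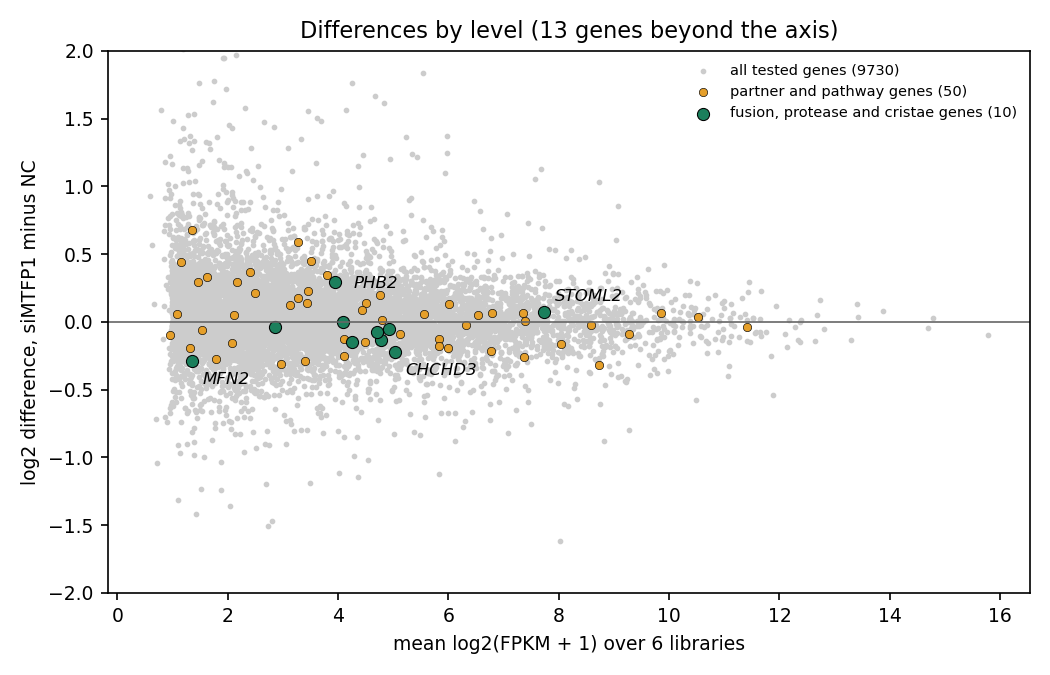
Log2 difference between libraries labelled siMTFP1 and NC against mean log2(FPKM + 1), for 9730 tested genes (grey), 50 partner genes (orange) and the 10 fusion, protease and cristae genes (green). The 10 genes lie inside the grey cloud, between -0.29 and 0.30, and 13 genes fall beyond the vertical axis.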

How the data were processed

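The authors deposited FPKM values with 2 decimals for 17325 genes in each of 6 libraries. Per the labels' protocols, RNA was extracted with TRIzol and libraries were made with a BGI mRNA kit. Per the submitters' processing notes, HISAT2 2.2.1, Bowtie2 2.3.4.3, RSEM 1.3.1, DESeq2 1.4.5 and the build ARS-UCD1.2 were used, without the role of each. Strand use and the division of shared reads are not given in the sources used here.

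Groups came from the titles. Genes were matched by symbol, 24 symbols turned into dates being restored through the gene ID from the RefSeq table (17087 IDs matched). A mean of at least 1 FPKM was required (9730 genes) and log2(FPKM + 1) was compared with limma 3.58.1 in R 4.3.3 (trend, group as the only term, two-sided), with Benjamini-Hochberg adjustment over these genes at 0.05. The procedure was tested on simulated data. FPKM is not a count, so no count model was run, and a pseudocount understates changes of scarce genes. Ratios within a library used no pseudocount, with exact permutation tests adjusted over the 6 ratios (Python 3.11.15, SciPy 1.17.1).

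The genes and lists were chosen with earlier results of these data known. Besides the 10 genes, MTFP1, SPG7 and PHB1, the text names the 2 genes of each list with the smallest p, and marks others as chosen after their values were seen. EIF2AK1, MTX2, MIGA1, MIGA2, YBEY, MICOS10, APOO, CHCHD6, APOOL, MICOS13 and the cell type markers named from their lists were chosen in that way too. ATAD3A and the blood marker HBB were not matched. In the files PHB1 is called PHB, DELE1 is KIAA0141 and MICOS10 is MINOS1. Libraries differed from one another (Pearson r across genes 0.982 to 0.991), so none was treated as a duplicate. Alternatives were other pseudocounts, filters and scalings, the replicate number as a block and leaving out each library.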

Additional observations from a re-analysis of the deposited data

How the results depend on the processing

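No gene of the 10 passed the adjusted threshold under any of the 14 alternatives in which it was tested, the replicate block included. MFN2 was not tested with a mean FPKM of at least 5, which left 9 genes. The smallest adjusted p of any was 0.693. Over all genes the count of 0 became 2 with a mean FPKM of at least 5, 2 with FPKM rescaled to equal sums, and 0 to 2 when a library was left out. It was 0 with the replicate block. Deviations of same-numbered libraries had correlations of 0.03, -0.16 and 0.07 for numbers 1, 2 and 3. Those of differently numbered libraries ranged from -0.26 to 0.23. With so few libraries these values cannot tell whether the numbers pair the samples. Of 139 values for single genes, 130 kept their direction. The other filters and the replicate block cannot change a gene's log2 difference, so their values could not turn. For MFN2, whose groups were apart, leaving out a library could not turn it either. MFN2, OPA1, YME1L1, STOML2 and CHCHD3 kept their direction wherever they were tested. MFN1 turned to 0.0058 with equal sums and ranged from -0.12 to 0.12 with a library left out. The other leave-one-out ranges that crossed 0 were -0.25 to 0.041 for OMA1, -0.22 to 0.094 for AFG3L2, -0.015 to 0.56 for PHB2 and -0.20 to 0.17 for IMMT. Among the log2 ratios, YME1L1 to OMA1 ranged from -0.22 to 0.11, STOML2 to PHB2 from -0.53 to 0.078 and IMMT to CHCHD3 from -0.053 to 0.36, while the other 3 kept their direction. The cause of these turns was not tested. The difference of MTFP1 ranged from 0.14 to 0.44 with a library left out and was 0.96 with a pseudocount of 0.1. Depth is unknown, so scarce genes (MFN2, SPG7, MTFP1) carry no counting interval. The median difference of all genes stayed within 0.03 of 0 under each scaling.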
